A study of Danio rerio with 6 samples.

Results

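The 10 genes described here encode enzymes of lower glycolysis, the part of the pathway that takes glyceraldehyde-3-phosphate to pyruvate. They are gapdh, gapdhs, pgk1, pgam1a, pgam1b, pgam2, eno1a, eno2, eno3 and pkma, taken by symbol from the deposited table of 30258 zebrafish genes. These symbols have 11 entries, of which 10 had reads, and all 10 of those passed the filter on low counts. The remaining entry, a copy of eno1a (ENSDARG00000116458), had a mean of 0. The genes were chosen because the paralogs of a step appeared to differ in opposite directions between tlr2-/- and tlr2+/+ larvae in these same libraries. Their differences between the genotypes are therefore given as a description, without a test.

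The libraries hold poly(A) RNA of whole larvae at 5 days post fertilization (dpf), with 3 biological replicates of the tlr2 mutant (tlr2-/-) and 3 of the wild type control (tlr2+/+), all unchallenged. The mutant line carries the ENU-induced allele sa19423 of tlr2, a receptor of innate immunity, and was outcrossed repeatedly to the ABTL wild type strain. Larvae of a genotype came from single crosses of homozygous parents of that genotype, so alleles shared by the parents of a genotype cannot be told apart from the mutation. In RNA of whole larvae, fewer cells of a type and less RNA per cell cannot be told apart either.

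Lower glycolysis recovers the energy invested in the upper part of the pathway. Glyceraldehyde-3-phosphate dehydrogenase makes NADH, phosphoglycerate kinase and pyruvate kinase make ATP, and between them phosphoglycerate mutase and enolase rearrange the phosphate and remove water. Vertebrates carry several genes for most of these steps, and in mammals the copies differ by tissue. The mammalian muscle forms are encoded by Pgam2 and Eno3, the brain form of the mutase by Pgam1, the neuronal enolase by Eno2 and the broadly expressed enolase by Eno1, while mammalian Gapdhs is the form of sperm. Zebrafish have pairs such as pgam1a and pgam1b for some of them.

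The sequencing depth was 17854737 to 24088390 estimated reads in the tlr2-/- libraries and 19828367 to 33403126 in the tlr2+/+ libraries. At least 10 reads were assigned to 15542 to 17133 genes in the tlr2-/- libraries, and to 12950, 11909 and 19202 genes in tlr2+/+ replicates 1, 2 and 3. Replicates 1 and 2 of tlr2+/+ thus stood apart by their low number of detected genes, and replicate 3 by a TMM scaling factor of 1.59, against 0.789 to 0.983 in the other 5 libraries. Both entries of tlr2 had no read in any library, which allows up to 0.0564 to 0.183 CPM by library (3 counts, counting error only), so its expression cannot check the genotype labels. Of 16776 genes tested with edgeR's quasi-likelihood test, 1 passed an adjusted p under 0.05, which is 0.00596% of the genes, and it is none of the 10 isoenzymes. At an unadjusted p under 0.05 there were 625 genes (3.73%), and DESeq2's Wald test called 38.

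The levels below are in TPM, the share of transcripts scaled to a fixed total, which is corrected for transcript length and so can be compared between genes. CPM, the reads of a gene scaled by library size with TMM factors, are used for differences between genotypes. The choice of scale moves the genotypes against each other. The median log2 fold change of all genes tested was 0.02 on the CPM scale and -0.22 on the log2(TPM + 1) scale, so a value near 0 on one scale can lie on the other side of 0 on the other scale.

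Phosphoglycerate mutase showed the widest difference in the balance of its isoenzymes. The muscle form pgam2 (ENSDARG00000057571) had 86.8, 97.9 and 57.1 TPM in tlr2-/- replicates 1, 2 and 3, against 239, 197 and 185 TPM in tlr2+/+ replicates 1, 2 and 3. All 3 mutant libraries were below all 3 wild type libraries, and the means were 80.6 ± 21.1 TPM in tlr2-/- larvae and 207 ± 28.4 TPM in tlr2+/+ larvae (SD, n = 3 each). Its paralog pgam1b (ENSDARG00000014068) had 121, 114 and 131 TPM in tlr2-/- larvae, against 98.8, 98.9 and 87.7 TPM in tlr2+/+ larvae. Here the mutant libraries were all above the wild type libraries, by a smaller margin. The second copy, pgam1a (ENSDARG00000005423), was the least expressed of the 3 genes, with 27.2, 23.8 and 19.5 TPM in tlr2-/- larvae and 45.9, 18.6 and 50.4 TPM in tlr2+/+ larvae. The groups overlapped for pgam1a, since tlr2+/+ replicate 2 had the lowest level of all.

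The leading mutase gene differed between the genotypes. The pgam2 gene held 37.0%, 41.4% and 27.5% of the mutase TPM in tlr2-/- larvae, against 62.3%, 62.6% and 57.2% in tlr2+/+ larvae. The share of pgam1b was 51.5%, 48.5% and 63.0% in tlr2-/- larvae and 25.8%, 31.4% and 27.2% in tlr2+/+ larvae. The ratio of pgam2 to pgam1b was 0.718, 0.855 and 0.437 in tlr2-/- larvae and 2.42, 1.99 and 2.10 in tlr2+/+ larvae, on either side of 1. A ratio within a library does not depend on the scaling between libraries. The difference in the share of pgam2 was -25.4 percentage points (tlr2-/- minus tlr2+/+), and it was -21.9 against tlr2+/+ replicate 3 alone. The summed TPM of the 3 mutase genes was 226 ± 16.4 in tlr2-/- larvae and 340 ± 37.6 in tlr2+/+ larvae (SD, n = 3 each), without overlap. A lower total did not carry over to CPM. There the mean of pgam1b was 343 CPM in tlr2-/- larvae and 201 CPM in tlr2+/+ larvae. Those of pgam2 were 93.7 and 183 CPM, and those of pgam1a 42.2 and 47.1 CPM, in the same order.

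**Figure D1:**
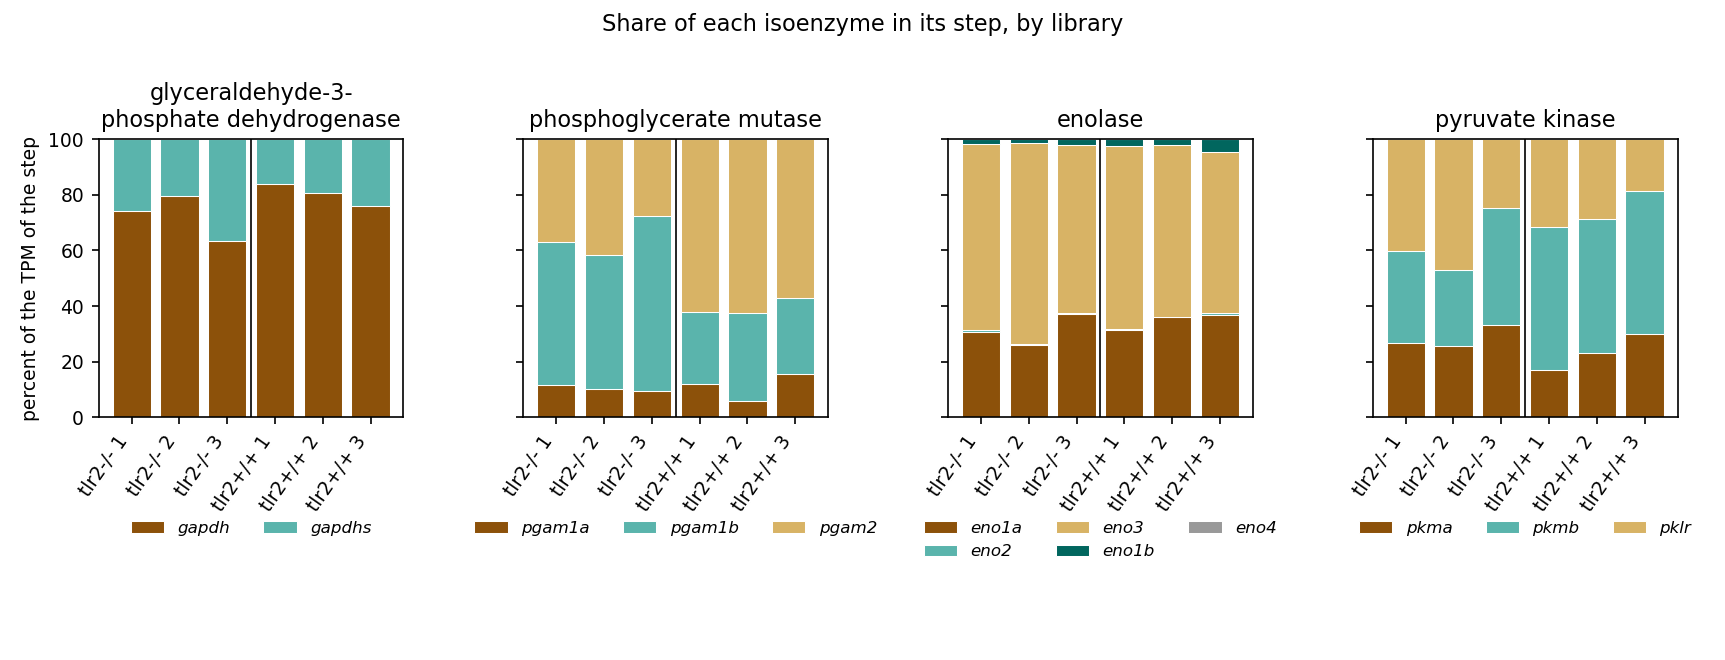
Percent of the TPM of a step that each isoenzyme holds, as stacked bars for each library, tlr2-/- left of the line and tlr2+/+ right of it. For phosphoglycerate mutase the pgam2 band takes 27.5% to 41.4% of the tlr2-/- bars and 57.2% to 62.6% of the tlr2+/+ bars, while the enolase and dehydrogenase bars overlap between the genotypes for each member.

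On the CPM scale the same genes had log2 fold changes of -0.97 for pgam2, 0.77 for pgam1b and -0.16 for pgam1a, with standard errors of 0.42, 0.37 and 0.39. The CPM of pgam2 overlapped between the genotypes, with 88.6, 128 and 64.9 CPM in tlr2-/- larvae against 235, 219 and 96.5 CPM in tlr2+/+ larvae. The overlap came from tlr2+/+ replicate 3, with tlr2-/- replicates 1 and 3 below its 96.5 CPM and replicate 2 above it. Against that library alone the log2 fold change of pgam2 was 0.13, in a fit that estimated the scaling factors again. The level of pgam2 was thus lower in every tlr2-/- library on the TPM scale. On the CPM scale the tlr2-/- mean of 93.7 CPM was close to tlr2+/+ replicate 3. For pgam1b the CPM values were 302, 371 and 355 in tlr2-/- larvae and 218, 258 and 126 in tlr2+/+ larvae, without overlap, and the log2 fold change was 1.61 against tlr2+/+ replicate 3 alone.

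Phosphoglycerate kinase had 1 gene here, pgk1 (ENSDARG00000054191), which is the first ATP-forming enzyme of the pathway. It had 72.4, 49.0 and 78.4 TPM in tlr2-/- larvae, against 173, 150 and 173 TPM in tlr2+/+ larvae. The groups did not overlap, with means of 66.6 ± 15.5 TPM in tlr2-/- larvae and 165 ± 13.3 TPM in tlr2+/+ larvae (SD, n = 3 each), a ratio of 0.403. In CPM the values were 266, 230 and 316 in tlr2-/- larvae and 568, 575 and 367 in tlr2+/+ larvae, again without overlap. The log2 fold change was -0.89 ± 0.36 (standard error), and -0.27 against tlr2+/+ replicate 3 alone. The enzyme before it in the pathway did not share this pattern, since the TPM ratio of gapdh to pgk1 was 33.4, 64.0 and 21.4 in tlr2-/- larvae and 18.7, 18.4 and 14.8 in tlr2+/+ larvae.

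Of the dehydrogenase genes, gapdh was the most expressed of the 10 by mean TPM in both genotypes, and gapdhs came after gapdh and eno3. For gapdh (ENSDARG00000043457) the level was 2418, 3137 and 1678 TPM in tlr2-/- larvae and 3227, 2755 and 2565 TPM in tlr2+/+ larvae. The groups overlapped, with the lowest and the second highest value both in the mutant. For gapdhs (ENSDARG00000039914) it was 841, 800 and 968 TPM in tlr2-/- larvae and 617, 657 and 816 TPM in tlr2+/+ larvae. These overlapped only through mutant replicate 2 and wild type replicate 3. The CPM values of gapdhs did not overlap, with 1392, 1678 and 1801 CPM in tlr2-/- larvae and 967, 1153 and 691 CPM in tlr2+/+ larvae.

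On the CPM scale both genes were placed on the same side, with log2 fold changes of 0.17 for gapdh and 0.79 for gapdhs (standard errors 0.45 and 0.37). On the TPM scale they were -0.28 and 0.33 (standard errors 0.22 and 0.21), so the direction of gapdh turned with the scaling. Relative to the median of all genes, gapdh was at 0.15 in CPM and -0.07 in TPM, and gapdhs at 0.77 and 0.54. Against tlr2+/+ replicate 3 alone the log2 fold change in CPM was 1.21 for gapdh and 1.40 for gapdhs. Within a library, gapdh exceeded gapdhs in 6 of 6 libraries, by a ratio of 2.88, 3.92 and 1.73 in tlr2-/- larvae and 5.23, 4.19 and 3.14 in tlr2+/+ larvae. The share of gapdhs in the step was 27.6 ± 8.28% in tlr2-/- larvae and 19.8 ± 4.08% in tlr2+/+ larvae (SD, n = 3 each). This difference of 7.76 percentage points was smaller than the spread of the mutant libraries, and it was 3.25 without tlr2-/- replicate 3 and 3.43 against tlr2+/+ replicate 3 alone.

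**Figure D2:**
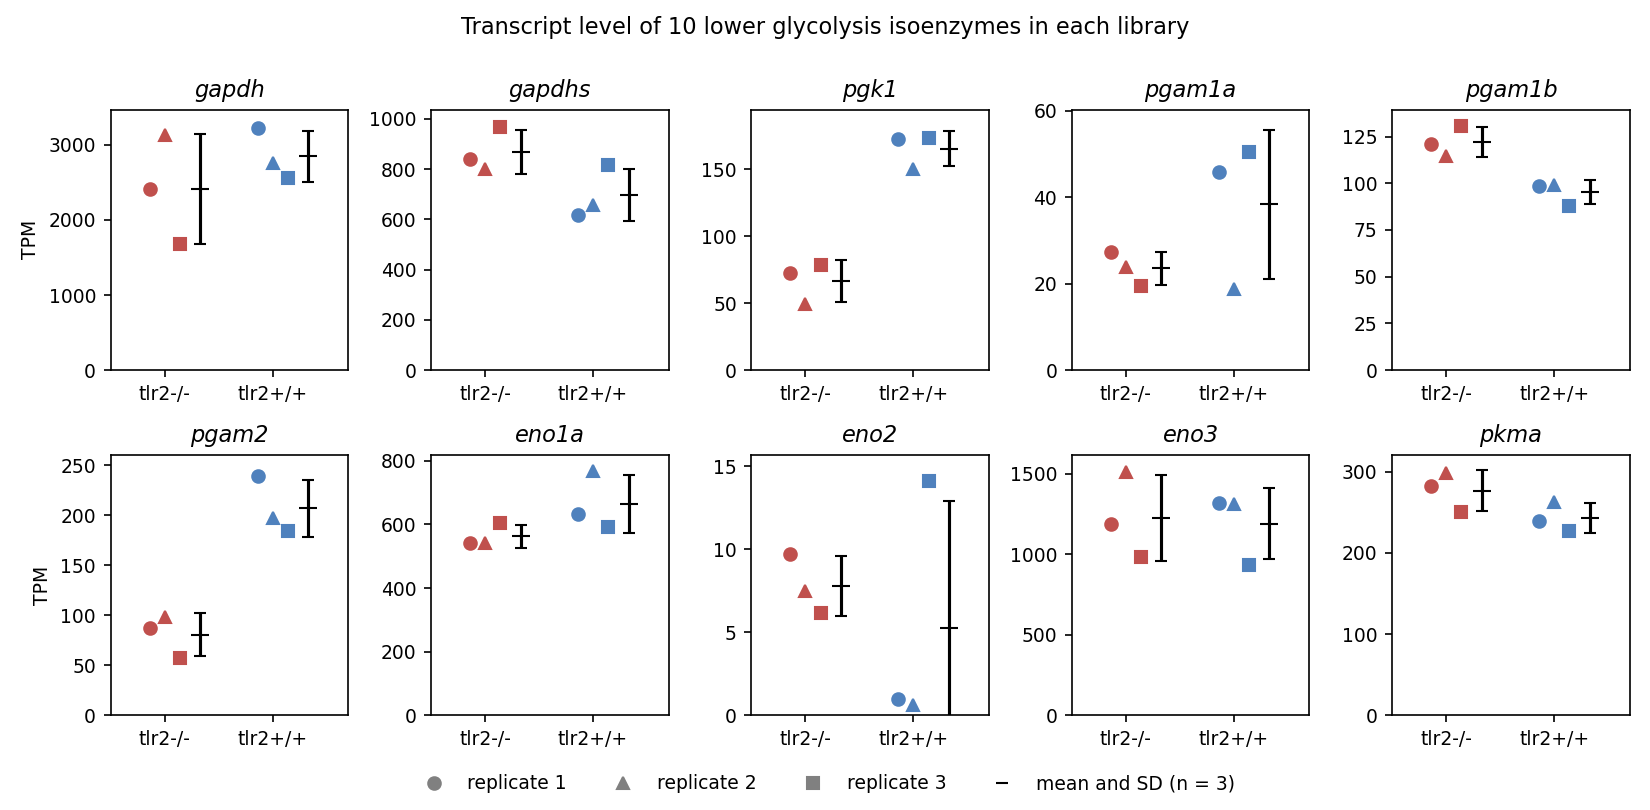
TPM of the 10 isoenzymes in each library, with tlr2-/- in red on the left and tlr2+/+ in blue on the right of each panel, the marker shape giving the replicate and the bar the mean and SD (n = 3, cut at 0 for eno2). The groups are apart for pgk1, pgam2 and pgam1b, and eno2 has 0.988 and 0.620 TPM in tlr2+/+ replicates 1 and 2 beside 14.1 TPM in replicate 3.

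Among the enolases, the levels of the muscle form and the broad form overlapped between the genotypes. The muscle form eno3 (ENSDARG00000039007) had 1186, 1512 and 982 TPM in tlr2-/- larvae and 1321, 1315 and 934 TPM in tlr2+/+ larvae. The broad form eno1a (ENSDARG00000022456) had 541, 541 and 605 TPM in tlr2-/- larvae and 632, 768 and 592 TPM in tlr2+/+ larvae. Both ranges overlapped, and eno3 was above eno1a in 6 of 6 libraries, by 1.58 to 2.79 times. The log2 fold changes were 0.43 (standard error 0.47) for eno3 and 0.25 (0.41) for eno1a in CPM, and 0.04 (0.22) and -0.23 (0.21) in TPM, so that of eno1a changed sign with the scaling. Against tlr2+/+ replicate 3 alone the CPM values were 1.78 for eno3 and 1.34 for eno1a. The share of eno3 in the enolase TPM was 66.7 ± 6.09% in tlr2-/- larvae and 61.9 ± 4.0% in tlr2+/+ larvae (SD, n = 3 each).

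The neuronal enolase eno2 (ENSDARG00000014287) was the least expressed member, with less than 1% of the enolase TPM in every library. It had 523, 447 and 277 reads in tlr2-/- larvae, against 43, 29 and 982 reads in tlr2+/+ larvae. In CPM this was 24.0, 23.6 and 16.9 in tlr2-/- larvae and 1.43, 1.61 and 18.5 in tlr2+/+ larvae. The low values were those of tlr2+/+ replicates 1 and 2, while replicate 3 lay within the range of the mutant libraries. The log2 fold change of 1.57 (standard error 0.89) therefore rests on these 2 libraries, and it was 0.38 against tlr2+/+ replicate 3 alone and 3.83 without it.

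The same 2 libraries were low for other genes of this level. Of 3484 genes with a median of 10 to 40 CPM in the tlr2-/- libraries, at most 0.115% were under 0.1 times that median in a tlr2-/- library. In tlr2+/+ replicates 1, 2 and 3 these were 4.28%, 5.74% and 0.402%. The genes and the median were taken from the tlr2-/- libraries, where eno2 is high, which by itself keeps the tlr2-/- shares low. Only the shares of the tlr2+/+ libraries can therefore be compared, and with each other. In both replicates 1 and 2 together this held for 37 genes (1.06%), and eno2 is one of them. The 43 reads of tlr2+/+ replicate 1 all lay on the transcript ENSDART00000189990.1, which had no read in the other 5 libraries, whereas ENSDART00000037126.7 held 99.5% to 100% of the eno2 reads in those. The part of detection in the result of eno2 was not tested.

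Pyruvate kinase was represented by pkma (ENSDARG00000099730), with 282, 299 and 250 TPM in tlr2-/- larvae and 240, 263 and 227 TPM in tlr2+/+ larvae. These ranges overlapped, and the log2 fold change was 0.37 in CPM and 0.19 in TPM (standard errors 0.40 and 0.24), and 1.39 in CPM against tlr2+/+ replicate 3 alone. Its paralog pkmb (ENSDARG00000099860), which was not among the 10, had 347, 324 and 315 TPM in tlr2-/- larvae and 736, 547 and 388 TPM in tlr2+/+ larvae. In CPM the genotypes overlapped for pkmb, with 951, 1104 and 961 in tlr2-/- larvae and 1888, 1562 and 536 in tlr2+/+ larvae. Its log2 fold change in CPM was -0.40 ± 0.45 (standard error). The ratio of pkma to pkmb was 0.812, 0.924 and 0.795 in tlr2-/- larvae and 0.326, 0.481 and 0.584 in tlr2+/+ larvae. The level of pkmb was thus above that of pkma in all 6 libraries, and by more in the wild type. The remaining gene, pklr (ENSDARG00000042010), which in mammals encodes the enzyme of liver and red blood cells, ranged from 186 to 553 TPM in tlr2-/- larvae and from 139 to 449 TPM in tlr2+/+ larvae. With pklr included, the share of pkma in the step was 28.5 ± 4.20% in tlr2-/- larvae and 23.4 ± 6.61% in tlr2+/+ larvae (SD, n = 3 each), and its difference changed sign to -1.55 percentage points against tlr2+/+ replicate 3 alone.

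The remaining enolase genes were minor. The eno1b gene (ENSDARG00000013750) had 27.6, 23.5 and 32.9 TPM in tlr2-/- larvae and 49.8, 43.9 and 71.0 TPM in tlr2+/+ larvae, without overlap. In CPM it overlapped, where the log2 fold change was -0.25 ± 0.34 (standard error). The eno4 gene (ENSDARG00000070598) had 22, 0 and 16 reads in tlr2-/- larvae and no read in tlr2+/+ larvae, and it did not pass the low count filter.

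**Figure D3:**
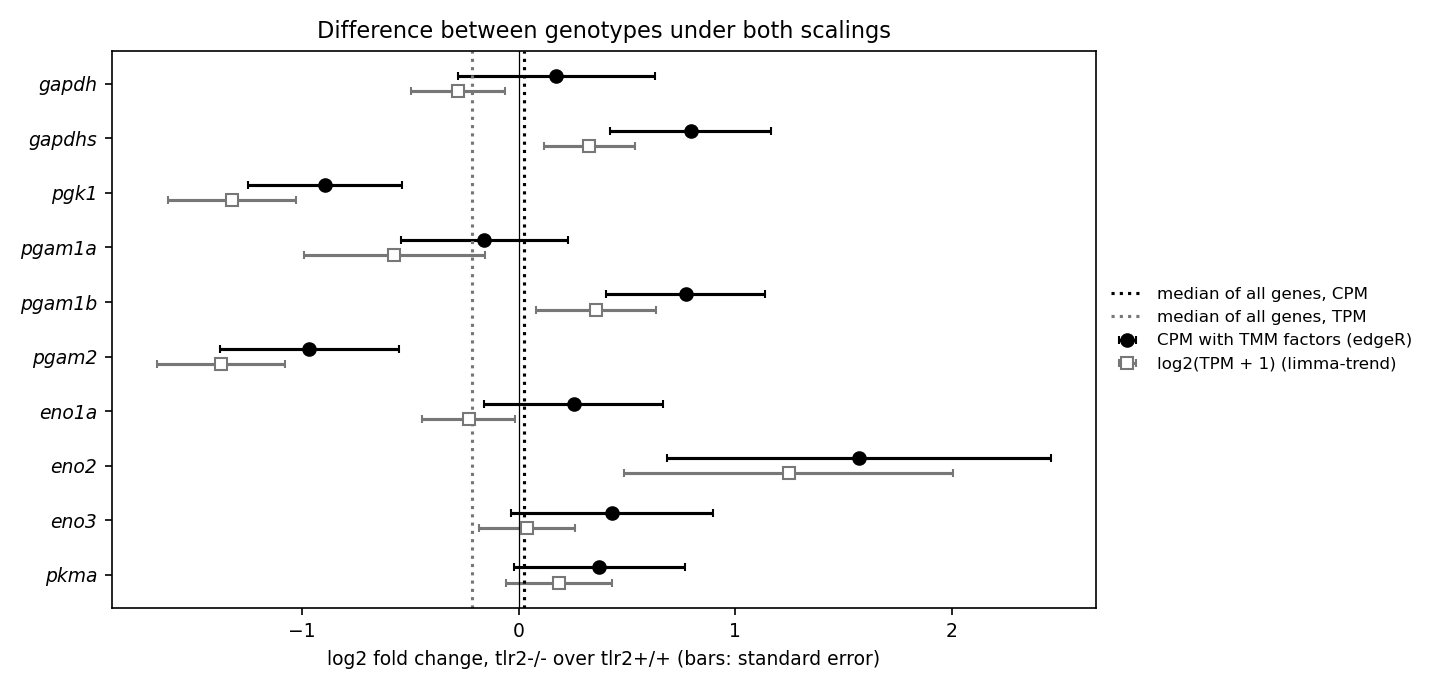
Log2 fold change of each isoenzyme (tlr2-/- over tlr2+/+) with its standard error, from CPM with TMM factors (black circles) and from log2(TPM + 1) (open squares), beside the median of all genes on each scale (dotted lines at 0.02 and -0.22). Both scales place pgk1 and pgam2 left of 0 and gapdhs, pgam1b and eno2 right of it, while gapdh and eno1a lie on opposite sides.

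Counted over the 10 genes, 7 had a positive and 3 a negative log2 fold change in CPM, with a median of 0.31, where 51.1% of all genes tested were positive with a median of 0.02. In CPM the 2 genotypes were apart in all libraries for gapdhs and pgam1b, higher in tlr2-/- larvae, and for pgk1, lower in tlr2-/- larvae. Over all genes tested, 13.1% were apart in this way, 6.87% higher and 6.2% lower. In TPM they were apart for pgam1b, which was higher, and for pgk1 and pgam2, which were lower, where 15.4% of all genes were apart, 2.53% higher and 12.9% lower. The genes were picked from this comparison, and nothing is read from these counts. The signs of pgam2 and pgam1b were opposite on both scales. Against tlr2+/+ replicate 3 alone, with the scaling factors estimated again, both were positive in CPM, pgam2 only at 0.13. The signs of gapdh and gapdhs were opposite in TPM and alike in CPM. Of the enolases, eno2 and eno3 were positive on both scales and eno1a was negative in TPM.

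The names muscle and neural were compared with markers of these tissues. The 40 muscle markers, among them actins, myosins and creatine kinases, had 44 entries with reads, and their summed TPM was 121457 to 153707 in tlr2-/- larvae and 150681 to 222367 in tlr2+/+ larvae. These ranges overlapped slightly, and the median log2 fold change of the 43 entries tested was -0.11 in CPM, with 18 positive and 25 negative, but it ranged from -0.36 without tlr2+/+ replicate 3 to 0.16 without tlr2+/+ replicate 2, and was 0.65 against tlr2+/+ replicate 3 alone. On the log2(TPM + 1) scale it was -0.42, where the median of all genes was -0.22. The smallest p among them were those of tcap and actn3a, lower in tlr2-/- larvae, and myom1a, higher (unadjusted p = 0.00499, 0.00781 and 0.013 from edgeR's quasi-likelihood test, adjusted p = 0.9998 for each). The first encodes a titin cap protein, the second an actinin of the Z-disc and the third a protein of the M-band. The level of tcap was 2.71, 3.43 and 6.71 CPM in tlr2-/- larvae, against 32.8, 11.1 and 13.8 CPM in tlr2+/+ larvae. The study itself selected tcap and actn3a on these samples, so they are not independent evidence.

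Per 1000 TPM of muscle markers, pgam2 had 0.661, 0.637 and 0.470 TPM in tlr2-/- larvae and 1.48, 0.886 and 1.23 TPM in tlr2+/+ larvae. For eno3 the values were 9.02, 9.84 and 8.09 TPM in tlr2-/- larvae and 8.18, 5.91 and 6.20 TPM in tlr2+/+ larvae. The ratio of pgam2 to eno3, both muscle forms in mammals, was 0.0732, 0.0647 and 0.0581 in tlr2-/- larvae and 0.181, 0.150 and 0.198 in tlr2+/+ larvae. The 2 muscle forms thus stood apart from each other within the libraries, with no overlap between the genotypes.

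The 38 neuron markers, such as synaptic proteins and the RNA-binding proteins elavl3 and elavl4, had 40 entries with reads. Their summed TPM was 1102, 805 and 1233 in tlr2-/- larvae and 870, 935 and 2502 in tlr2+/+ larvae, which overlapped, with the highest value in tlr2+/+ replicate 3. In CPM, 29 of 39 entries tested were positive, where 51.1% of all genes tested were. Their median log2 fold change was 0.42, where that of all genes was 0.02, and it was -0.18 against tlr2+/+ replicate 3 alone. On the log2(TPM + 1) scale the median was 0.06, where that of all genes was -0.22. No read was found for 4 and 3 of the 40 entries in tlr2+/+ replicates 1 and 2, and for 0 to 1 in the other 4 libraries. The marker with the smallest p was syn2b, a synapsin of synaptic vesicles (adjusted p = 0.9998 from edgeR). Its mean was 186 ± 17.0 CPM in tlr2-/- larvae and 89.7 ± 44.9 CPM in tlr2+/+ larvae (SD, n = 3 each). By library it had 174, 205 and 178 CPM in tlr2-/- larvae and 82.8, 138 and 48.7 CPM in tlr2+/+ larvae. Unlike eno2, syn2b was thus lowest in tlr2+/+ replicate 3. The sodium pump subunit atp1a3a was lowest in the same 2 wild type libraries as eno2, with 174, 178 and 196 CPM in tlr2-/- larvae and 26.9, 39.1 and 169 CPM in tlr2+/+ larvae. So was gad2, which makes the transmitter GABA, with 31.4, 35.0 and 25.9 CPM in tlr2-/- larvae and 4.63, 11.6 and 27.7 CPM in tlr2+/+ larvae.

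Per 1000 TPM of neuron markers, pgam1b had 110, 142 and 106 TPM in tlr2-/- larvae and 113, 106 and 35.1 TPM in tlr2+/+ larvae, which overlapped. On this measure eno2 had 8.83, 9.31 and 4.97 TPM in tlr2-/- larvae and 1.14, 0.663 and 5.64 TPM in tlr2+/+ larvae. It too overlapped, and tlr2+/+ replicates 1 and 2 were again the low ones. The same measure for gapdhs was 763, 993 and 785 TPM in tlr2-/- larvae and 709, 703 and 326 TPM in tlr2+/+ larvae, without overlap. Per 1000 TPM of photoreceptor markers, gapdhs had 99.9, 99.6 and 97.4 TPM in tlr2-/- larvae and 81.4, 108 and 78.9 TPM in tlr2+/+ larvae, which overlapped. A neural name for pgam1b and gapdhs was not tested further, since no tissue was sampled alone. The part of tissue composition in these results was not tested.

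**Figure D4:**
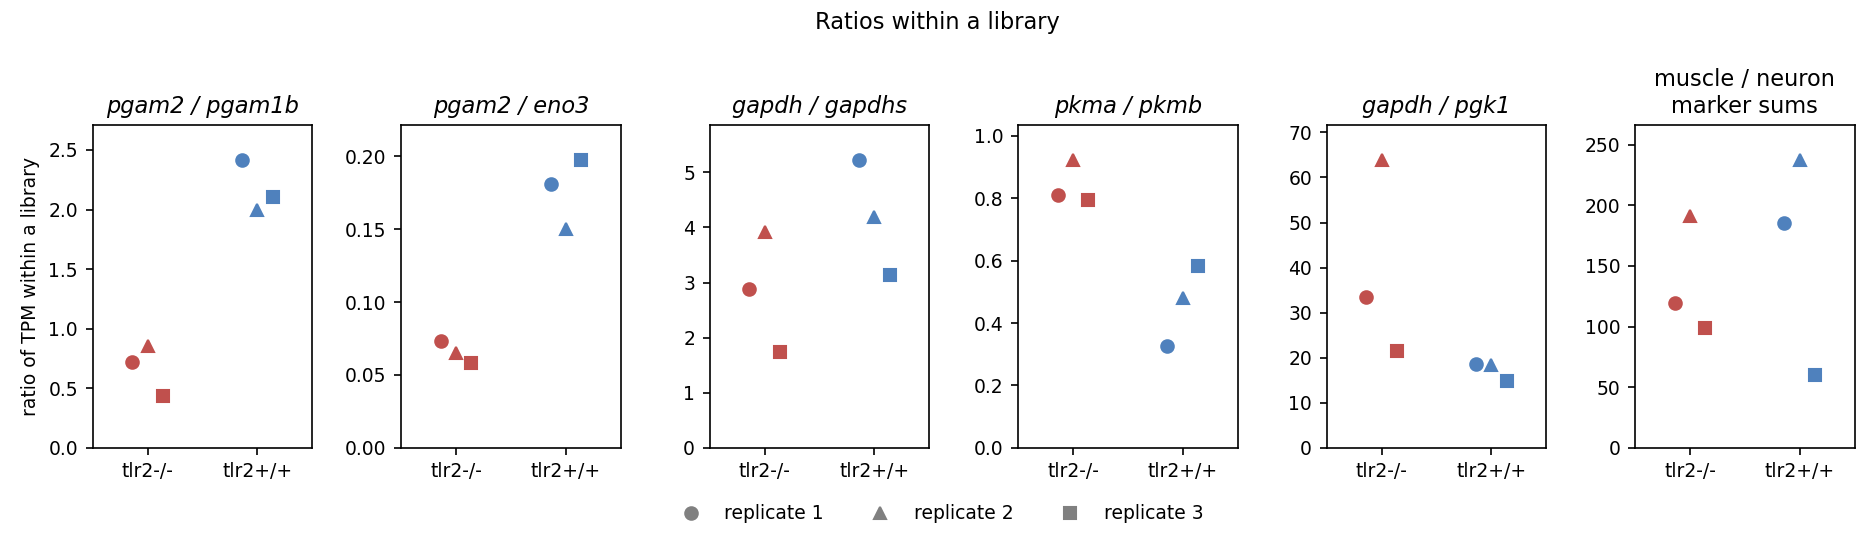
Ratio of the TPM of the named genes within each library, and of the summed TPM of 40 muscle over 38 neuron markers in the last panel, tlr2-/- in red on the left and tlr2+/+ in blue on the right. The ratio of pgam2 to pgam1b lies at 0.437 to 0.855 in tlr2-/- and 1.99 to 2.42 in tlr2+/+ larvae, while the marker ratio overlaps (98.5 to 191 in tlr2-/- and 60.2 to 238 in tlr2+/+ larvae).

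Markers of other tissues were also given no call. The median log2 fold change in CPM was -0.07 over 27 photoreceptor entries, 0.13 over 16 liver entries and -0.21 over 14 erythrocyte entries. The summed TPM of each overlapped between the genotypes. It was 8032 to 9939 in tlr2-/- larvae and 6096 to 10349 in tlr2+/+ larvae for photoreceptors, and 3320 to 7246 in tlr2-/- larvae and 5451 to 7608 in tlr2+/+ larvae for liver. For erythrocytes it was 2141 to 5518 in tlr2-/- larvae and 3081 to 5673 in tlr2+/+ larvae. The smallest p were those of arr3a, rho and opn1lw2 among photoreceptor markers, with log2 fold changes of 1.01, 1.31 and -0.92. They were those of apobb.1, tfa and f2 among liver markers (1.09, -0.81 and -1.12), and of cahz, hbbe1.2 and alas2 among erythrocyte markers (-0.95, -1.27 and -0.80). Of these, the study itself selected arr3a, rho and apobb.1 on these samples. Of 139 marker entries tested, none passed an adjusted p under 0.05 in edgeR, while 9 had an unadjusted p under 0.05 (3.73% of all genes). Other tools called 1 of them (limma-trend on log2(TPM + 1), 0.0417% of all genes) and none (DESeq2's Wald test, 0.18% of all genes).

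In the rest of glycolysis, from hexokinase to lactate dehydrogenase and with the 4 other genes of the lower part, 31 entries were tested. None passed an adjusted p under 0.05 in edgeR, and 3 had an unadjusted p under 0.05, all with a negative log2 fold change (over all genes 1.73% were higher and 1.99% lower). DESeq2's Wald test and limma-trend called none either. The log2 fold change was positive in 12 and negative in 19 entries with a median of -0.27, which was 0.12 without tlr2+/+ replicate 1 and 0.45 against tlr2+/+ replicate 3 alone. It was -0.69 on the log2(TPM + 1) scale, where the median of all genes was -0.22. The 3 genes were gpib, pfkma and gck, of which the study itself selected gpib and pfkma on these samples, so they are not independent evidence. The paper also reports gpib and pfkma as lower in the mutant by qPCR, which was not examined here. Of the members, the paper itself reports pgk1 and pgam2 as lower in the mutant in these samples, and marks both as non-significant.

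The enzymes gpib, a glucose-6-phosphate isomerase, and pfkma, a phosphofructokinase, stand before the genes described here in the pathway. For gpib the level was 13.3, 11.1 and 19.8 CPM in tlr2-/- larvae and 60.0, 59.9 and 33.2 CPM in tlr2+/+ larvae (log2 fold change -1.79, standard error 0.41, adjusted p = 0.94 from edgeR). For pfkma it was 53.8, 43.9 and 37.1 CPM in tlr2-/- larvae and 188, 96.1 and 64.3 CPM in tlr2+/+ larvae (log2 fold change -1.37, standard error 0.42, adjusted p = 0.9998 from edgeR). Both were lower in every mutant library than in any wild type library, as pgk1 was. The glucokinase gene gck had 2.16, 3.06 and 0.549 CPM in tlr2-/- larvae and 4.20, 52.6 and 0.982 CPM in tlr2+/+ larvae, which overlapped, with the high value in tlr2+/+ replicate 2. Of 10 entries of gluconeogenesis genes, 4 were positive and 6 negative with a median of -0.17, none passed the adjusted threshold in edgeR or in DESeq2's Wald test with all libraries, and 1 entry of pck2, a phosphoenolpyruvate carboxykinase, had an unadjusted p of 0.00559 in edgeR. Its level was 6.34, 5.90 and 3.48 CPM in tlr2-/- larvae and 48.0, 5.54 and 23.8 CPM in tlr2+/+ larvae, which overlapped. The study also selected pck2 on these samples, and reports it as lower by qPCR as well.

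The reads of most members lay on 1 transcript. The leading transcript held at least 97.1% of the reads in every library for gapdh, gapdhs, pgam1a, pgam2, eno3, pgam1b and pgk1. For pgam1b and pgk1 only 1 transcript each was joined, and the join can leave out transcripts without reads. For eno1a it held 87.0% to 92.5%. For pkma the main transcript, ENSDART00000170888.2, held 73.3%, 79.7% and 82.3% of the reads in tlr2-/- larvae and 68.2%, 69.1% and 79.9% in tlr2+/+ larvae, and ENSDART00000167229.3 held nearly all of the rest. These shares overlapped, with tlr2+/+ replicate 3 again nearest to the mutant libraries.

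The profiles most like pgam2 and eno2 were looked for among 5806 genes with a mean of at least 10 CPM, by the root mean square difference of log2 CPM centred on each gene over the 6 libraries. Nearest to pgam2 were gadd45ba (0.122), tnk1 (0.124) and zgc:110591 (0.167). Nearest to eno2 were slc6a1b (0.320), a GABA transporter, stap2a (0.375) and lpin1 (0.395), the last of which the study selected on these samples. The search picked these 3 by their likeness to eno2 over the same libraries. Their shared pair of low libraries follows from that choice, and nothing is read from it. For slc6a1b the level was 70.8, 79.8 and 61.7 CPM in tlr2-/- larvae, against 12.3, 11.7 and 75.8 CPM in tlr2+/+ larvae.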

How the data were processed

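RNA of whole larvae was sequenced for the authors by GenomeScan, with reads of 150 nucleotides. The authors deposited, for 57192 transcripts per library, estimated counts and TPM from Salmon 1.2.1 (GRCz11), and a gene table with the mean signal of each gene from DESeq2 1.24.0. The deposited columns of fold change and s-value hold the authors' own comparison (shrunken log2 fold change, its standard error and an s-value) and were not used.

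Transcripts were joined to genes by recomputing that mean from up to 40 neighbouring rows (tolerance 1e-12). The library factors needed for this were first set from genes with reads in a single library. They were then refined by least squares on single rows that already matched the deposited means. The procedure joined 21079 of 23956 genes with reads, at least 99.9% of the reads, and left out 4 ambiguous genes. Genes with reads in a single library were not joined by design, so the numbers of detected genes leave them out.

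Per gene, the estimated counts were added up, rounded to whole numbers, filtered with edgeR's default, scaled with TMM and tested in edgeR 4.0.16 (quasi-likelihood, robust, genotype as the only factor, Benjamini-Hochberg adjustment, R 4.3.3). The standard error in CPM is the size of the log2 fold change divided by the square root of F. Fits were tested on simulated data. With the observed spread, edgeR recovered 0% of 2-fold, 29.8% of 8-fold and 56.9% of 32-fold changes in simulated counts. A gene that was not called is therefore not shown to be alike in both genotypes. limma 3.58.1 and DESeq2 1.42.0 served as alternatives, and Python 3.11.15 with pandas 2.3.3, numpy 2.4.6 and matplotlib 3.10.9 for the rest. Alternatives were RLE factors, no filter, a mean CPM of 1, the replicate number as a block, DESeq2, limma-trend on TPM with a pseudocount of 1 or 0.1, length offsets, summed entries of a symbol, CPM shares and leaving out each library. The comparison with tlr2+/+ replicate 3 alone was added after seeing the data and assumes that this library varies like the others. Its low count filter and TMM factors were estimated again from the libraries kept. Its log2 fold changes are therefore scaled differently from the CPM given for each library. Leaving out 1 library leaves the other libraries to estimate the spread.

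The members and the lists of genes were chosen with earlier results of these data known. Named are all members, the other lower glycolysis genes, up to 3 genes of smallest p per list, tlr2, and the 3 genes most like pgam2 and eno2. The elavl3 and elavl4 genes are named as examples of a list. Nothing in the labels says how many larvae a sample holds, so a p-value reflects only the spread among these 6 samples. Depth limits genes with few reads most. The libraries low for eno2, tlr2+/+ replicates 1 and 2, had 30584310 and 19828367 estimated reads, and the shallowest, tlr2-/- replicate 3, had 17854737. With reads drawn down to equal depth, at least 10 reads fell on 12516 and 11782 genes in tlr2+/+ replicates 1 and 2. The other libraries had 14888 to 18313 such genes. The part of depth in the result of eno2 was not tested. Coordinates and sequences were not used here, because the annotation at hand is of another assembly.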

Additional observations from a re-analysis of the deposited data

How the results depend on the processing

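The number of genes called over the whole table was 1, and it was 3 without the filter on low counts, 0 with a mean CPM of at least 1, 64 with the replicate number as a block, 38 with DESeq2's Wald test, 7 with limma-trend on log2(TPM + 1), and 0 each with a pseudocount of 0.1, with transcript length offsets and with summed entries of a symbol. It was 0 to 5 when a library was left out and 758 against tlr2+/+ replicate 3 alone. The labels do not say whether the replicate numbers pair the libraries. The correlations of the deviations were 0.0018, 0.0438 and 0.0566 for the same number, and tlr2-/- replicates 1 and 2 each deviated most like another number. With 3 libraries per genotype, such values show no pairing but cannot exclude one. The causes of these differences were not tested. Of the other glycolysis genes, 0 were called, but 1 with the replicate block (gpib). Of the markers, 0 were called, but 2 with the replicate block and 1 with limma-trend on log2(TPM + 1). Over all genes tested, 0.381% were called with the replicate block and 0.0417% with limma-trend on log2(TPM + 1). Against tlr2+/+ replicate 3 alone, 1 entry of the gluconeogenesis gene pck2 had a log2 fold change of -2.01.

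Against tlr2+/+ replicate 3 alone, the log2 fold changes of gapdh, gapdhs, pgk1, pgam1a and pgam1b were 1.21, 1.40, -0.27, 0.21 and 1.61. Those of pgam2, eno1a, eno2, eno3 and pkma were 0.13, 1.34, 0.38, 1.78 and 1.39. The isoenzymes were picked from this contrast and that comparison leaves 1 tlr2+/+ library, so only these sizes are given. In it the median log2 fold change was 0.65 for muscle markers and 0.45 for the other glycolysis genes. Over all genes it was -0.05. Positive values against that library were thus not particular to the isoenzymes. Of the 10 isoenzymes, 5 to 9 had a positive log2 fold change over the 16 alternatives (5 on both TPM scales, 5 to 8 when a library was left out, and 9 against tlr2+/+ replicate 3 alone). No alternative changed the sign of gapdhs, pgk1, pgam1b, eno2, eno3 or pkma. The sign of pgam2 changed in 1 of the 16 alternatives, that of gapdh in 4, of eno1a in 3 and of pgam1a in 2. The difference in the share of pgam2 was -28.5 to -21.5 percentage points when a library was left out and -22.2 in CPM. For gapdhs this was 3.25 to 11.4 and for eno3 1.89 to 7.97, and 8.76 for eno3 against tlr2+/+ replicate 3 alone. The median log2 fold change with a TPM pseudocount of 0.1 was 0.10 for neuron markers, -0.45 for muscle markers and -0.71 for the other glycolysis genes. That of all genes was -0.17. The difference in the share of pkma was 1.89 to 8.50 percentage points when a library was left out, and -1.55 against tlr2+/+ replicate 3 alone.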
